A study of Ovis aries with 5 samples.

Results

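Acetylation of lysine 27 on histone H3 (H3K27ac) was mapped in the perirenal fat of 2 fetal sheep, and the peaks called in both animals were set against the peaks called in 1 animal alone. The members were all H3K27ac peaks on chromosomes 1 to 26, which came to 50408 of 50977 for replicate 1 and 49371 of 49888 for replicate 2, out of 213217 H3K27ac and H3K4me3 peaks in the 4 libraries of the series. A peak counted as shared when it overlapped a peak of the other list by at least 1 bp, and as single otherwise. This gave 38743 shared and 11665 single peaks in replicate 1, and 39975 shared and 9396 single peaks in replicate 2. Pooled over the libraries there were 78718 shared and 21061 single peaks. The animals were wild type pure bred merino fetuses at 132 days post conception by the labels, from ewes on a maintenance diet, and no treatment was given. Each library came from 1 fetus, and the peaks were called against 1 input library pooled from the fetuses. There is therefore no condition to compare, peaks of 1 library are not replicates, and values are given for each library without a test.

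H3K27ac is laid down by the acetyltransferases p300 and CBP at active promoters and active enhancers, and it cannot stand on the same lysine as H3K27me3, the mark of Polycomb repression. H3K4me3 marks promoters, so H3K27ac away from H3K4me3 is commonly read as a sign of an enhancer. Perirenal fat of the fetal lamb is largely brown fat, the tissue that makes heat through the uncoupling protein UCP1 after birth. The peak lists hold positions without gene names, so marker genes of brown fat and of other cell types were not analysed here.

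Both libraries were deep and alike in size. After duplicate tags were removed, replicate 1 held 144.0 M tags and replicate 2 held 145.7 M, against 26.7 M in the input. A tag is 1 mapped read, and 25.2 and 23.0% of the tags lay in peaks. Intervals are 95% Wilson intervals. They cover counting error only, so a difference between the animals can be larger.

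Most H3K27ac peaks fell in the shared class, for which an overlap of 1 bp was enough. The shared peaks made up 76.9% of replicate 1 (interval 76.5 to 77.2%) and 81.0% of replicate 2 (80.6 to 81.3%). By length they held 82.8 and 84.8% of the sequence covered, and by tags 85.0 and 86.5% of the tags in autosomal peaks. A shared peak was counted here at its full length and with all its tags, however small the overlap. The bases covered by both lists were not counted. The single peaks covered 39.0 of 226.7 Mb in replicate 1 and 32.0 of 210.8 Mb in replicate 2.

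Single peaks were shorter and thinner than shared peaks in both animals. The median length was 2831 bp for single and 3921 bp for shared peaks in replicate 1, and 2808 and 3691 bp in replicate 2. A long peak has more room to meet a peak of the other list, so length is partly fixed by the way the classes were made. Tag density, the tags in a peak divided by its length, had a median of 132.4 tags per kb in single and 151.7 in shared peaks of replicate 1, and of 130.3 and 149.5 in replicate 2. The single peaks of both animals thus lay close to each other in length and density, and both differed from the shared peaks in the same direction. The ranges overlapped widely, with the middle 50% of peaks running from 123.8 to 143.0 tags per kb in single and from 136.6 to 170.8 in shared peaks of replicate 1.

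The authors' fold enrichment over the input had a median of 21.4 in the single peaks of each library, against 26.03 and 25.73 in shared peaks. Whether a peak is called in the other library also depends on its strength, so these values are a description of the classes. The score of a peak, which rises as its p-value falls, was at most 60 in 30.6% of single and 7.36% of shared peaks of replicate 1, and in 33.0 and 9.38% in replicate 2, where a score of 50 was the lowest that could be called.

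The position of the summit within the peak hardly differed between the classes. The summit offset, which is 0% for a summit at the midpoint of the peak and 100% for one at either end, had a median of 33.7% in single and 32.2% in shared peaks of replicate 1. In replicate 2 it was 31.7 and 32.0%, so the animals did not share a direction.

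**Figure D1:**
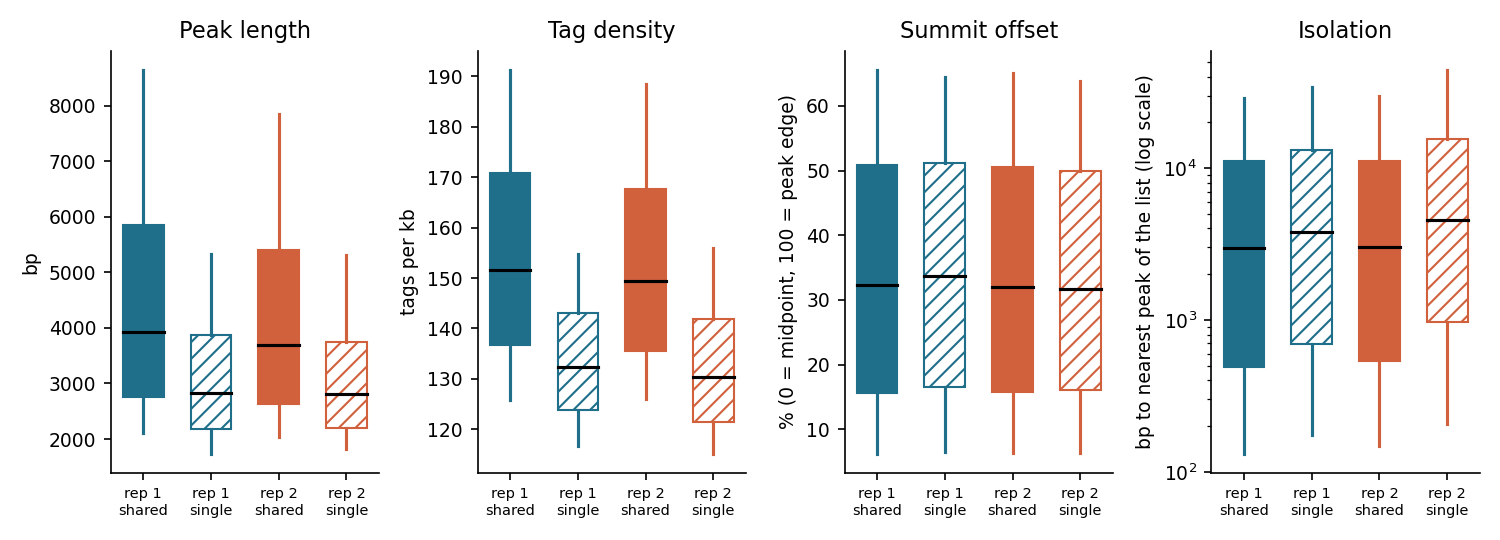
Length (bp), tag density (tags per kb), summit offset (0% at the midpoint, 100% at the edge) and isolation (bp to the nearest peak of the same list, log axis) of shared (filled) and single (hatched) H3K27ac peaks in replicates 1 and 2. Boxes span the quartiles, lines mark the medians and whiskers run from the 10th to the 90th percentile, on axes that do not start at 0. Single peaks were shorter (medians 2831 and 2808 bp) and of lower density (132.4 and 130.3 tags per kb) than shared peaks in both libraries, and their summit offsets were alike.

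From 1500 bp the share of peaks found in both animals rose with peak length, but not to the end of the scale. Among peaks of 2000 to 2999 bp, 67.7% of replicate 1 and 72.9% of replicate 2 were shared. Among those of 8000 to 11999 bp the shares were 94.1 and 92.1%. In replicate 2 the highest share was 92.6%, at 6000 to 7999 bp, and at 12000 to 19999 bp it was 89.9%. From 20 kb the shares were lower in both libraries, at 85.8% (interval 80.6 to 89.7%) and 81.0% (73.2 to 86.9%). The libraries parted at the short end. Below 1500 bp, 50.2% of the 883 peaks of replicate 1 were shared (46.9 to 53.5%), against 76.8% of the 849 peaks of replicate 2 (73.8 to 79.5%).

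Along the score the rise went on to the top class. From a score of 50 to below 60, 44.4% of peaks in replicate 1 and 54.7% in replicate 2 were shared, and from 500 upwards 98.6 and 97.3%. That left 24 single peaks of score 500 or more in replicate 1 and 41 in replicate 2.

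**Figure D2:**
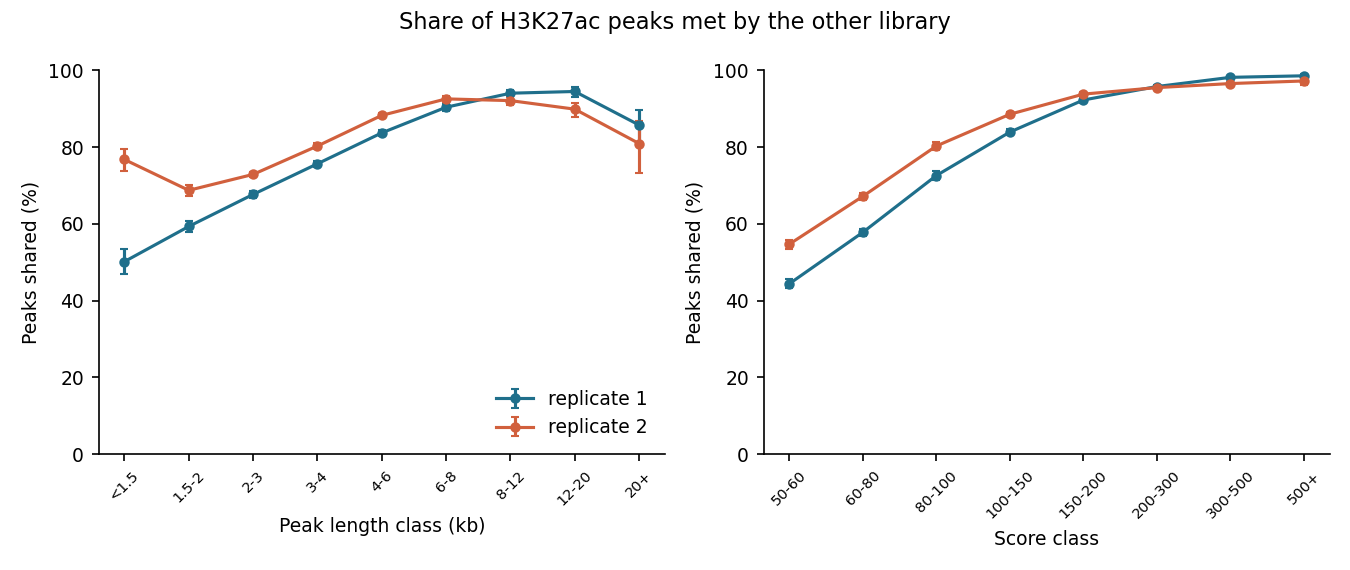
Percent of H3K27ac peaks of each library that overlapped a peak of the other, by length class in kb and by score class, with 95% Wilson intervals. The share reached 94.1 and 92.1% at 8 to 12 kb and was 85.8 and 81.0% at 20 kb or more, while over the score classes it reached 98.6 and 97.3% in the highest class.

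The longest single peaks held many tags. Their median scores were above those of all single peaks, but below those of peaks of 12 to 20 kb. In replicate 1, 32 of 225 peaks of 20 kb or more were single, with 3691 to 9822 tags each. In replicate 2, 24 of 126 were single, with 3352 to 10296 tags. Their median density, 216.5 and 198.1 tags per kb, was close to that of shared peaks of the same length class, 202.0 and 205.7 tags per kb. Their median score was 146.7 and 143.6, against 139.1 and 162.1 in shared peaks of that class. All peaks of 12 to 20 kb had medians of 259.2 and 260.3, and single peaks of every length had medians of 69.7 and 67.8. The other library often had a peak beside these long single peaks. A peak of the other list lay within 5 kb of 26 of the 32 and of 14 of the 24, against 39.1 and 40.8% of shorter single peaks, and the median gap was 1426 and 1840 bp.

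Among the single peaks of most tags, that of replicate 1 lay on chromosome 5 from 60399275 to 60437728, with 9822 tags over 38454 bp and a score of 74.06, and replicate 2 had its nearest peak 1301 bp away. The next lay on chromosome 12 from 43103445 to 43139901 with 9510 tags. Both overlapped a joint H3K4me3 region, that is, a promoter region that the authors listed from both H3K4me3 libraries. The other three, of which that on chromosome 19 also overlapped one, were on chromosome 13 from 69435682 to 69471593 (8205 tags), chromosome 19 from 14339122 to 14367263 (7096 tags) and chromosome 3 from 81147819 to 81174389 (6937 tags).

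In replicate 2 the single peak of most tags lay on chromosome 13 from 30483364 to 30526738, with 10296 tags and 62.6-fold enrichment. The nearest peak of replicate 1 lay 50 bp from it. The others lay on chromosome 5 from 66463911 to 66490568 (7101 tags), chromosome 8 from 2209512 to 2236374 (6489 tags), chromosome 1 from 186257797 to 186285235 (5910 tags) and chromosome 19 from 3756977 to 3782191 (5807 tags). Those on chromosomes 8, 1 and 19 overlapped a joint H3K4me3 region. For that on chromosome 1 the nearest peak of replicate 1 was 12354 bp away. All 10 of these peaks were longer than 20 kb, so a region with at least 5807 tags in 1 library had no called peak in the other. Tags of the other library outside its peaks were not analysed here, so these peaks do not show that the other animal lacked acetylation there.

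Some classes turned on a few bases. Of the single peaks, 172 in replicate 1 and 145 in replicate 2 lay within 100 bp of a peak of the other list, and 16.0 and 15.5% lay within 1 kb. The nearest was a single peak on chromosome 1 from 97671257 to 97673626 (346 tags in replicate 1), 2 bp from its neighbour in replicate 2. On the other side of the limit, 7 of 33243 paired peaks overlapped by 100 bp or less, the smallest being 21 bp on chromosome 19, where 290 tags in replicate 1 met 303 in replicate 2. At the far end, 11.5% of single peaks of replicate 1 and 12.3% of replicate 2 had no peak of the other list within 50 kb.

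The single peaks of the 2 animals were unlike in where they lay. In replicate 1, 2188 of 11665 single peaks (18.8%, interval 18.1 to 19.5%) overlapped a joint H3K4me3 region. In replicate 2, 406 of 9396 did so (4.32%, 3.93 to 4.75%). The shared peaks of both libraries stood at 25.04 and 25.21%. Pooled, 12.3% of single peaks overlapped H3K4me3, a value that describes neither library. The difference between the single peaks of the animals was 14.4 percentage points (13.6 to 15.3), with 1 library on each side. The interval counts peaks as if they were independent. Single peaks tended to follow each other along the chromosome, so it can be too narrow. The difference was 7.81 percentage points when sharing needed a reciprocal overlap of 50%, and 25.8 and 15.2 against all H3K4me3 peaks of replicate 1 and of replicate 2.

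Distance gave the same picture. The median distance to the nearest joint H3K4me3 region was 23922 bp for single and 24612 bp for shared peaks in replicate 1, and 54651 and 23734 bp in replicate 2. Beyond 100 kb from any such region lay 18.6% of single peaks in replicate 1 and 35.1% in replicate 2, against 21.7 and 21.2% of shared peaks. Single peaks of replicate 1 were also the ones that most often flanked H3K4me3, with 9.87% within 5 kb but not overlapping, against 6.86% of the shared peaks of that library and 7.58% of the single peaks of replicate 2. Over all autosomes the single peaks of replicate 2 were thus the class farthest from H3K4me3, while those of replicate 1 had a median distance close to that of shared peaks and a lower overlap.

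**Figure D3:**
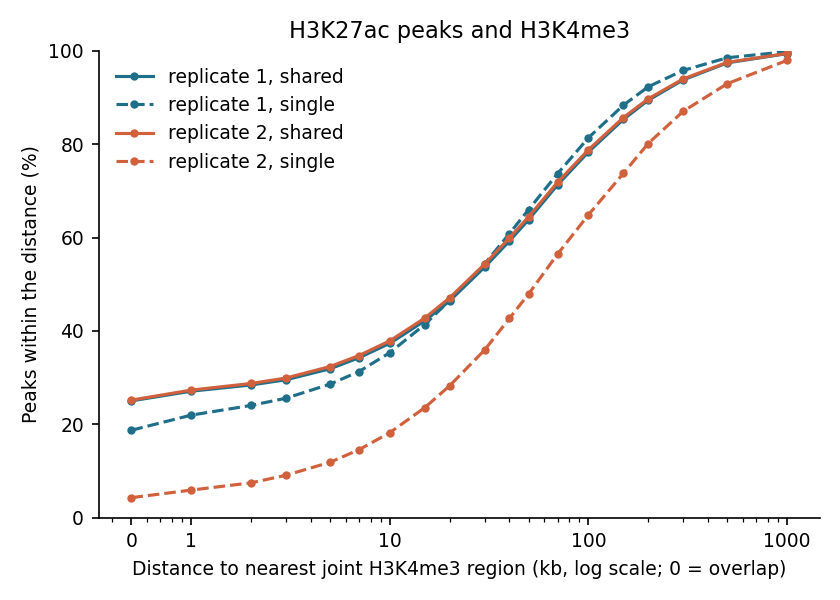
Cumulative percent of H3K27ac peaks within a given distance (kb, log axis, with overlap drawn at 0) of the nearest joint H3K4me3 region, for shared (solid) and single (dashed) peaks of each library. The curves of the shared peaks coincide (25.04 and 25.21% at overlap), that of the single peaks of replicate 1 starts at 18.8%, and that of the single peaks of replicate 2 starts at 4.32% and stays below the others.

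The libraries also differed in which parts of the genome held their single peaks. Peaks were grouped by the number of joint H3K4me3 regions in their 1 Mb window. In windows with 0 such regions, 85.2% of the peaks of replicate 1 were shared (interval 83.3 to 86.9%), against 63.2% of those of replicate 2 (61.1 to 65.3%). In windows with 30 or more, the shares were 65.6% (63.2 to 67.9%) and 92.0% (90.3 to 93.5%). Over the classes between, the share fell in replicate 1 and rose in replicate 2 at every step. In windows with 4 to 7 regions the libraries nearly met, at 79.2 and 80.8%. Pooled, the share stayed between 72.6 and 80.02% in all 7 classes.

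The overlap with H3K4me3 was then compared within windows of like density. In windows with 20 or more regions, 44.1% of single peaks in replicate 1 and 15.6% in replicate 2 overlapped H3K4me3, against 55.7 and 54.7% of shared peaks. In windows with at most 3 regions the values were 7.79 and 1.08% for single and 10.2 and 10.7% for shared peaks. In windows with 4 to 19 regions, which held most peaks, they were 16.1 and 5.23% for single and 25.7% for the shared peaks of each library. Within each class of windows the single peaks of replicate 2 were the class with the lowest overlap. The median distance in windows with 4 to 19 regions was larger for single than for shared peaks in both libraries, at 25562 against 20488 bp in replicate 1 and 36388 against 20030 bp in replicate 2. In windows with 20 or more it was 979 against 0 bp and 7652 against 0 bp. In windows with at most 3 the libraries parted, with 108990 against 125682 bp in replicate 1 and 188669 against 123633 bp in replicate 2.

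By chromosome, single peaks made up 36.3% of replicate 1 on chromosome 14, 35.1% on chromosome 21, 34.9% on chromosome 11 and 32.6% on chromosome 24, where replicate 2 had 13.9, 13.8, 15.9 and 11.4%. Chromosomes 14, 11 and 24 were the 3 densest in H3K4me3, with 14.5, 13.1 and 11.2 joint regions per Mb, and chromosome 21 had 6.70. On chromosome 6, with 3.87 per Mb, the order turned, with 16.4% single in replicate 1 and 23.6% in replicate 2. Over the 26 chromosomes, Spearman's rho between H3K4me3 density and the percent single was 0.70 in replicate 1 and -0.72 in replicate 2, and between the percent single of the 2 libraries it was -0.86. These are descriptions over chromosomes that share 1 pair of libraries. Base composition and mappability of the windows were not analysed here, and their part in this pattern was not tested.

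**Figure D4:**
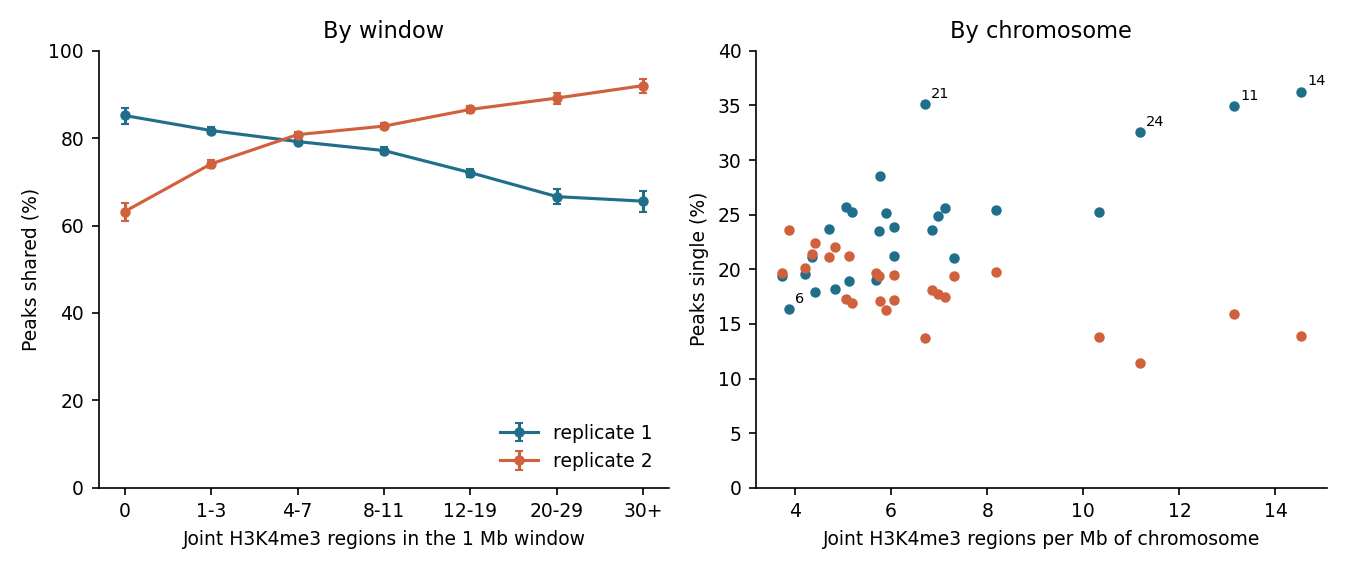
Percent of H3K27ac peaks shared, by the number of joint H3K4me3 regions in the peak's 1 Mb window (left, with 95% Wilson intervals), and percent of peaks single on each of 26 chromosomes against the joint H3K4me3 regions per Mb (right), for replicate 1 (blue) and replicate 2 (orange). Replicate 1 fell from 85.2 to 65.6% shared and replicate 2 rose from 63.2 to 92.0% from the emptiest to the densest windows, and the numbers on the right name chromosomes 6, 11, 14, 21 and 24 at their replicate 1 points.

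H3K27me3 was compared with the classes through the authors' joint list of 15430 autosomal regions. In replicate 1, 467 single peaks (4.003%, interval 3.66 to 4.37%) overlapped an H3K27me3 region, against 1.63% of shared peaks (1.51 to 1.76%). In replicate 2 the order was opposite, with 90 single peaks (0.958%, 0.780 to 1.18%) against 1.51% of shared peaks (1.39 to 1.63%). Among peaks that also overlapped H3K4me3, the single ones carried H3K27me3 more often in both libraries, at 12.3 and 10.6%, against 4.21 and 3.88% of shared ones. Among all peaks, those that overlapped H3K27me3 but no H3K4me3 region made up 1.69% of single and 0.578% of shared peaks in replicate 1, and 0.500 and 0.528% in replicate 2. In tissue, overlap of these marks can come from different cells.

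The titles give the same animal number for replicate 1 of H3K27ac and of H3K4me3, and likewise for replicate 2, so each class was also set against H3K4me3 peaks found in 1 animal alone. Of the single H3K27ac peaks of replicate 1, 7.27% (6.81 to 7.75%) overlapped an H3K4me3 peak of that same animal alone and 5.50% (5.10 to 5.92%) one of the other animal alone. Shared peaks of replicate 1 had 4.07 and 20.7%. The H3K4me3 list of replicate 2 was the longer, with 62013 peaks against 50339. Single peaks of replicate 2 had 2.26% with the other animal and 11.4% with their own, a ratio of 0.197 that lay close to the 0.185 of shared peaks in that library. The ratio of replicate 1 to replicate 2 H3K4me3 peaks was 1.32 in the single peaks of replicate 1 and 0.196 in the shared ones. Relative to shared peaks, a tilt towards H3K4me3 of the same animal therefore appeared in replicate 1 and not in replicate 2. The tilt of replicate 1 kept its direction where no joint H3K4me3 region was overlapped, with 8.43 against 6.33%. With H3K4me3 peaks at an FDR of at most 1% the ratio was 10.8 in single peaks of replicate 1 (682 against 63 peaks) and 0.682 in shared ones. In replicate 2 it was then 0.982 in single and 0.653 in shared peaks. Its single peaks thus leaned towards H3K4me3 of the other animal relative to shared ones. At that limit 109 single peaks of replicate 2 lay at H3K4me3 of the other animal alone and 111 at that of their own. The density of H3K4me3 around the peaks was not held fixed in these ratios, and its part in them was not tested.

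Measured from edge to edge, single peaks stood somewhat farther from the other peaks of their own list. Isolation, the distance to the nearest other peak of the same library, had a median of 3786 bp in single and 2963 bp in shared peaks of replicate 1, and of 4564 and 3006 bp in replicate 2. Few peaks stood alone in either class. No other peak lay within 50 kb of 6.16% of single and 5.28% of shared peaks in replicate 1, and of 8.82 and 5.43% in replicate 2. Single peaks also followed each other along the chromosome. The peak before a single peak was single too in 36.7% of cases in replicate 1 and 30.8% in replicate 2, against 19.04 and 16.3% before a shared peak. The direction of the isolation difference rested on the overlap rule. With a reciprocal overlap of 50%, the pooled ratio of medians, single over shared, went from 1.36 to 0.756, so that single peaks were then the less isolated. With shared peaks alone as neighbours the ratio was 2.14. It was 1.14 with shared peaks weighted to the lengths of single peaks, and 1.03 from summit to summit.

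Shared peaks mostly matched peak for peak. Those that overlapped exactly 1 peak of the other list, which in turn overlapped no further one, formed 33243 pairs, or 85.8% of the shared peaks of replicate 1 and 83.2% of those of replicate 2. Within a pair the overlap covered a median of 87.5% of the longer peak, and the summits lay a median of 145 bp apart. Summits were within 1 kb in 85.2% of pairs. Of the other shared peaks, 2748 in replicate 1 and 1662 in replicate 2 overlapped at least 2 peaks of the other list. Long peaks of replicate 1 were the ones most often met by several, with 55.4% of its shared peaks of 20 kb or more overlapping at least 2 peaks of replicate 2, against 30.4% the other way.

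The tags of paired peaks were similar in the 2 animals. The log2 ratio of tags in replicate 2 over replicate 1, after division by the filtered tag total of each library, had a median of -0.06 and quartiles of -0.31 and 0.16. At least 2-fold more tags were found in replicate 2 in 566 pairs, 1.7% of all pairs, and at least 2-fold fewer in 1466, or 4.41%. With 1 library on each side these counts carry no test. Where the overlap had to be reciprocal at 50%, they were 231 and 655. Spearman's rho between the tags of replicates 1 and 2 over the 33243 pairs was 0.80, and between their lengths, which tags rise with, it was 0.78. In bulk tissue, fewer acetylated cells and less acetylation per cell cannot be told apart.

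The 2-fold differences in tags were mostly differences in called length. On tags per kb, 0 pairs differed 2-fold, and the log2 ratios ran from -0.74 to 0.77, so a pair could pass 2-fold in tags only with the longer peak on the higher side. Density counts tags inside called peaks only, and in shared peaks its 10th to 90th percentile ran from 125.9 to 189.8 tags per kb. A 2-fold gap in density between called peaks was therefore unlikely from the start. Tags outside the shorter peak were not analysed, so a shorter call and less acetylation there cannot be told apart. The 566 pairs with 2-fold more tags in replicate 2 had a median log2 ratio of 1.17 in length and 0.07 in tags per kb, with median lengths of 5394 bp in replicate 2 and 2286 bp in replicate 1. The 1466 pairs with 2-fold fewer had medians of -1.18 and -0.12, with 2522 and 6090 bp.

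The named pairs show this. The pair of lowest ratio lay on chromosome 13, where replicate 1 had a peak from 34453745 to 34478148 with 4587 tags and replicate 2 had one from 34476543 to 34478127 with 218 tags, inside the end of the former. The log2 ratio was -4.41 in tags and -0.47 in tags per kb. The next lowest ratios, -4.34 on chromosome 20, -4.15 on chromosome 16, -3.79 on chromosome 3 and -3.51 on chromosome 17, were pairs of the same kind, with 13143 to 27027 bp in replicate 1 and 1628 to 2991 bp in replicate 2.

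The pair of highest ratio lay on chromosome 2, with 300 tags from 31083980 to 31086479 in replicate 1 and 2919 tags from 31085038 to 31103927 in replicate 2. Its log2 ratio was 3.27 in tags and 0.35 in tags per kb. The next were 2.66 on chromosome 24, 2.50 on chromosome 17, 2.44 on chromosome 13 and 2.32 on chromosome 1. None of the 5 pairs of highest ratio overlapped a joint H3K4me3 region, and the nearest such region was 18573 bp away. Of the 5 lowest, those on chromosomes 3 and 17 overlapped one and that on chromosome 13 lay 114 bp from one. Those on chromosomes 16 and 20 lay 2776 and 377815 bp from one.

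The 3 pairs of most tags were alike in both animals. They were picked for their tags in both libraries, so this likeness is partly set by the choice. Single peaks, and shared peaks that overlapped at least 2 peaks of the other list, could not be among them. Among the 3837 pairs of highest mean tags, the log2 ratio of tags ran from -4.41 to 3.27, with quartiles of -0.25 and 0.08. The pair of most tags lay on chromosome 5 and ran from 26482040 to 26522705 with 9609 tags in replicate 1. In replicate 2 it ran from 26481854 to 26522674 with 10039 tags. The next, on chromosome 9, had 8001 tags from 44821113 to 44853257 in replicate 1, and replicate 2 had 8152 tags from 44821098 to 44853241. The third had 8374 and 7298 tags on chromosome 2 from 65721549 to 65754427 in replicate 1. All 3 overlapped a joint H3K4me3 region, and they were 32049 to 40821 bp long.

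At H3K4me3 the paired peaks of replicate 1 held somewhat more tags, also per kb. The 8253 pairs that overlapped a joint H3K4me3 region had a median log2 ratio of -0.15 in tags and -0.09 in tags per kb, and 72.1% of them had the lower scaled tags in replicate 2. The 24990 other pairs had medians of -0.03 and -0.01, with 52.9% lower in replicate 2. Pairs over 50 kb from H3K4me3 had medians of 0.01 and 0.00, the latter 0.0047 before rounding. Against the background of 1.7 and 4.41%, at least 2-fold more tags in replicate 2 occurred in 41 pairs at H3K4me3 (0.497%) and 525 elsewhere (2.10%), and at least 2-fold fewer in 421 (5.10%) and 1045 (4.18%). Of the pairs past 2-fold, which differed mainly in called length, 7.24% of those with more tags in replicate 2 and 28.7% of those with more in replicate 1 overlapped H3K4me3, against 24.8% of all pairs.

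The shift followed the windows used above. In windows with fewer than 4 joint H3K4me3 regions the median log2 ratio of tags was 0.06, in those with 4 to 11 it was -0.06, in those with 12 to 19 it was -0.15, and from 20 upwards it was -0.24. On tags per kb the medians were 0.02, -0.03, -0.07 and -0.10. The paired peaks thus leaned the same way as the single peaks, towards replicate 1 where H3K4me3 was dense and towards replicate 2 where it was sparse. By chromosome, the median ratio of tags per kb was lowest on chromosome 14, at -0.11, and highest on chromosome 8, at 0.01.

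**Figure D5:**
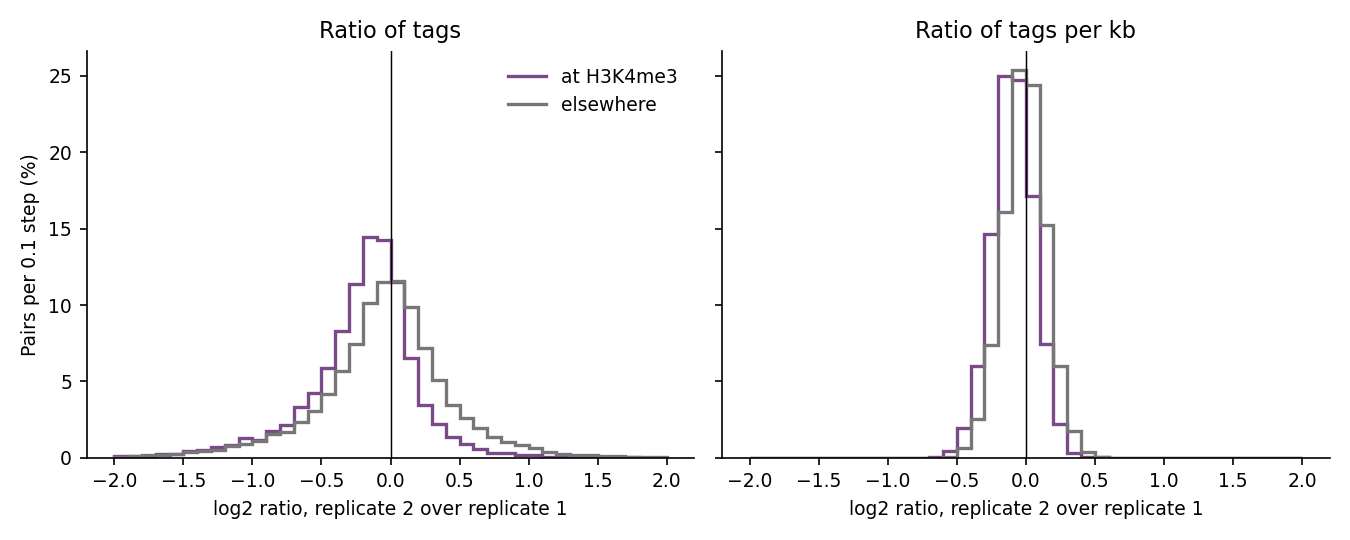
Percent of paired H3K27ac peaks per 0.1 step of the log2 ratio, replicate 2 over replicate 1 after scaling by filtered tags, for tags (left) and tags per kb (right), in pairs that overlap a joint H3K4me3 region (purple, 8253) and other pairs (grey, 24990). Pairs at H3K4me3 are shifted to the left (medians -0.15 and -0.09), and on tags per kb all pairs fall between -0.74 and 0.77.

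Gene names could be given only for regions that the study tied to genes, its selection sweeps, which are stretches where domestic sheep lost variation. For 10 of these genes, a selection among those the study names, only the sweep region that overlaps the gene itself was used, and further sweep regions tied to a gene were left out. Of the 10, 8 had a shared peak in their sweep region in both libraries: PANK2, a pantothenate kinase of coenzyme A synthesis, IGF2BP2, an RNA-binding protein, PLAG1, a growth-related transcription factor, BCO2, which cleaves carotenoids, LCORL, associated with body size, KITLG, the ligand of the KIT receptor, ESR1, the oestrogen receptor, and ITCH, a ubiquitin ligase. A peak was counted when it overlapped the region, and the shared peaks at ESR1 lay mostly outside it. The share of other regions of like size with a shared peak was not analysed here, so the count of 8 does not show enrichment. The region of TCHH held 0 H3K27ac peaks. The region of DGAT1, which makes triglycerides, held 1 peak, single in replicate 1 with 225 tags.

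The single peaks at these loci fell to 1 library at each. At PANK2 4 single peaks came from replicate 1 and 0 from replicate 2. The strongest lay on chromosome 13 from 50635682 to 50645281 with 1517 tags, overlapped H3K4me3 and was 24848 bp from the nearest peak of replicate 2. At ESR1 replicate 2 had 3 single peaks and replicate 1 had 0, with 417 to 620 tags each. Replicate 2 also held all single peaks at LCORL (2), BCO2 (2), KITLG (1), IGF2BP2 (1) and PLAG1 (1). None of these overlapped H3K4me3. With 1 animal on each side and so few peaks, these are values of the loci and not a difference between animals.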

How the data were processed

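Perirenal adipose chromatin of 2 fetuses was digested with micrococcal nuclease and immunoprecipitated for H3K27ac. Reads were aligned to Oar_v3.1 in CLC Genomics Workbench by the authors, who ran MACS 1.4.2 on each library at a p-value limit of 1.00e-05 against 1 pooled input. The deposited lists give each peak's tags as a count, a score (-10 times the log10 of the p-value), a fold enrichment over the input as a ratio and an FDR in percent, per the file headers. The authors also deposited joint region lists, used here for H3K4me3 and H3K27me3. Another 2 files, of per-library H3K27me3 peaks, match no sample of the labels and were left out.

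All autosomal rows were kept, positions are 1-based, distances run from edge to edge, and overlap needed 1 bp. Tags were scaled by filtered tag totals (144.0 M and 145.7 M). No test was made, since each library is 1 animal. Shares carry 95% Wilson intervals, and the difference of 2 shares carries Newcombe's interval. The members, classes and named peaks were chosen with earlier results of these data known. Named peaks are the 5 single peaks of most tags per library, the 3 pairs of most tags, the 5 highest and 5 lowest tag ratios among pairs with at least 100 tags in both, the cases nearest the overlap limit, and peaks in the sweep regions that overlap 10 chosen genes, whose positions came from the study's supplement. Alternatives covered the overlap rule, the FDR limit, each library alone, length classes, the distance measures and the scaling. The overlap and distance code was tested on simulated data. The scripts ran under Python 3.11.15 with matplotlib 3.10.9 for figures, scipy 1.17.1, pandas 2.3.3 and numpy 2.4.6.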

Additional observations from a re-analysis of the deposited data

Results flagged for a closer look

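In 3 measures the 2 libraries went opposite ways, and with 1 animal each none of these differences was tested. The percent of peaks overlapping H3K27me3, single minus shared, was 2.37 percentage points in replicate 1 and -0.55 in replicate 2 (-0.548 before rounding). Among peaks at H3K4me3 the libraries did not go opposite ways, with 12.3 against 4.21% in replicate 1 and 10.6 against 3.88% in replicate 2. The median distance to a joint H3K4me3 region, single minus shared, was -690 bp in replicate 1 and 30917 bp in replicate 2. Within windows of 4 to 19 joint H3K4me3 regions the libraries did not go opposite ways, since single peaks had the larger median in both (25562 against 20488 bp and 36388 against 20030 bp). The percent of peaks shared in windows with 20 or more joint H3K4me3 regions, minus that in windows with at most 3, was -16.0 percentage points in replicate 1 and 18.1 in replicate 2. The libraries held 144.0 M and 145.7 M filtered tags. Animal and library preparation cannot be told apart in these differences.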

How the results depend on the processing

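No paired analysis was possible because each mark has 1 library per animal and no conditions. Of 61 alternatives other than leaving out a library, 24 kept a value, 36 moved it, and 1 reversed a difference larger than the spread of the libraries. A value was kept within that spread or its interval, and counts of 2-fold pairs were kept within a fixed factor of the main count. The offset in bp, being in another unit, was counted as moved. The cause of the reversal was not tested. The summit offset difference, single minus shared, was smaller than the spread (0.65 percentage points), and it changed sign without replicate 1 (-0.29), with single peaks over 1 kb from the other list (-0.071) and in bp (-132.5). The alternatives on the H3K4me3 overlap of the single peaks of both animals and on windows were chosen after seeing the data. With 2 libraries, leaving out 1 gives the value of the other alone, so it is no test of stability. The ratio of tags per kb, single over shared, then ran from 0.872 to 0.873 (0.873 pooled), that of length from 0.722 to 0.761, that of isolation from 1.28 to 1.52, the offset difference from -0.29 to 1.45 percentage points, and H3K4me3 overlap, single minus shared, from -20.9 to -6.28 percentage points (-12.8 pooled).

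A reciprocal overlap of 50% reversed isolation (ratio of medians, single over shared, 0.756). It gave 68.3 and 69.8% of peaks shared in replicates 1 and 2, ratios of 0.779 for length and 0.890 for tags per kb, a summit offset 2.11 percentage points higher in single peaks, 231 pairs at least 2-fold higher and 655 lower in replicate 2, and a difference of 7.81 percentage points in H3K4me3 overlap between the single peaks of the animals. With an FDR of at most 10%, which removes peaks of high score, 74.4 and 78.8% were shared, the ratios were 0.794 for length, 0.891 for tags per kb and 1.16 for isolation, the median log2 tag ratio was -0.068, the difference in H3K4me3 overlap was 12.1 percentage points, and dense minus sparse windows gave 16.6 percentage points in replicate 2. With single peaks over 1 kb from the other list the ratios were 0.872 for tags per kb and 1.959 for isolation. With shared peaks weighted to the lengths of single peaks they were 0.902 and 1.14, and the offset difference was 2.61 percentage points.

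Isolation had a ratio of 2.14 with shared peaks alone as neighbours and 1.03 from summit to summit. Against H3K4me3 peaks of either library at any FDR, the overlap of single minus shared peaks was -24.2 percentage points. The median log2 tag ratio was -0.067 over merged regions, -0.029 with total tags as scaling, -0.028 on tags per kb and 0 when centred, by construction, and on tags per kb 0 pairs were 2-fold higher and 0 lower. At H3K4me3 peaks with an FDR of at most 1%, single peaks overlapped peaks of replicate 1 alone more than of replicate 2 alone by 5.31 percentage points in replicate 1 and by -0.021 in replicate 2. The difference in H3K4me3 overlap between the single peaks of the animals was 25.8 percentage points with all H3K4me3 peaks of replicate 1, 15.2 with those of replicate 2 and 12.9 without chromosomes 11, 14, 21 and 24. Windows of 500 kb gave -12.8 percentage points in replicate 1.

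The limit of these data is 1 library per animal against an input of fewer tags, and lists that hold no tags outside peaks. How far the other library fell short of a call at a single peak was not tested.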
